A study of Brassica rapa subsp. pekinensis with 6 samples.

Results

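E3 ubiquitin ligases with a RING or U-box domain were examined in doubled haploid and autotetraploid Chinese cabbage (Brassica rapa subsp. pekinensis), from leaf RNA. A gene was counted as a ligase where the description of its best Swiss-Prot protein hit, or the deposited description of a gene lacking a hit, called it an E3 ubiquitin-protein ligase, a U-box domain protein or a RING-H2 finger protein. This gave 246 of the 13225 genes listed by the authors, whose table holds those they called different between both kinds of leaf. The gene matching COP1, a light signalling ligase, was left out by the rule. Names below are those of the best hit, which was an Arabidopsis protein for 201 of the 246 genes and a protein from outside plants for 29. The wording also took in 4 ligases of the HECT type, 6 recognised by name as of the RING-between-RING type, and HRD3A, a component of a ligase complex.

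Both kinds of plant were derived from the doubled haploid line 'FT' and raised alike. Mature leaves attached to the main stem under its first branch were taken when the plants bolted, and messenger RNA was sequenced from 3 biological replicates of each kind. Each comparison below is of autotetraploid against doubled haploid leaves, so every value applies to a single genetic background. For each gene the table gives 1 value per group, a mean of normalised read counts, and a gene's 3 libraries can be worked out from such a mean where it is low. The libraries are named a, b and c here in each group, an arbitrary order. Libraries that do not overlap between groups are named for single genes below. This was so for 99.2% of all 3849 listed genes recovered in both groups, so it sets no gene apart.

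Ubiquitin is a small protein that cells attach to other proteins, often to send them to the proteasome for breakdown. An E1 enzyme activates ubiquitin, an E2 enzyme carries it, and an E3 ligase brings the E2 to a chosen target protein. The RING and the U-box are related folds that hold the E2. Plants carry large families of such ligases, and those known from Arabidopsis act in immunity, in responses to abscisic acid and drought, in leaf senescence, in nutrient supply and in light signalling.

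Leaf identity and tissue composition were looked at through genes picked by words in their descriptions, counting only listed genes. Of 34 genes for the small Rubisco subunit and chlorophyll-binding proteins, 30 were higher in autotetraploid leaves, and their summed means were 1081924 against 689720. Another list held 25 genes with descriptions naming pollen, SEPALLATA or AGAMOUS, most of them Agamous-like MADS-box proteins such as AGL19. Of these 20 were lower, with sums of 3705 and 5309, and 1 was at 0 in autotetraploid leaves. The 2 genes matching ROOT HAIR DEFECTIVE 3 homologs were lower, as were 4 genes matching laccases or a sieve element protein. Of the latter, 2 were at 0 in autotetraploid leaves. A match by name does not show in which tissue a gene is active, so these counts do not measure flower, root or stem tissue. The 7 listed senescence genes had summed means of 2311 (autotetraploid) and 11437 (doubled haploid), 3 of them higher and 4 lower. The hit SAG12, a senescence protease, had 4 of these genes: SAG12 BraA06000198 was at 4.86 and 4804, while SAG12 BraA06000730 at 48.8 and 13.5, BraA06003852 at 81.4 and 45.3 and BraA07001815 at 53.3 and 9.27 were the 3 higher ones. Without BraA06000198 the sums were 2306.5 and 6633. The part of these differences in the results below was not tested, and in whole leaves fewer cells of a type and less RNA per cell cannot be told apart.

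More of the listed E3 ligase genes were lower than higher in autotetraploid leaves, but the interval of their share higher included that of all listed genes. Of the 246 genes, 108 were higher and 138 were lower, a share higher of 43.9% with a 95% Wilson interval of 37.8 to 50.2%, counting error only. Among all listed genes 50.0% were higher and 50.0% lower, and the listed genes were 37.8% of the 34980 that the authors tested. The median log2 ratio of the ligases was -0.39, and that of all listed genes was 0.16. A change of at least 2-fold was found for 52 ligases that were higher and 74 that were lower. These are 21.1% and 30.1% of them, beside 16.6% and 23.0% of all listed genes, so both directions were above the table at large. The 201 ligases with an Arabidopsis hit were closer to balance, with 95 higher and 106 lower, 47.3% higher. Of them 49 were at least 2-fold higher and 52 at least 2-fold lower, 24.4% and 25.9%. Among the 8634 listed genes with an Arabidopsis hit 50.1% were higher, with 16.3% at least 2-fold higher and 23.0% at least 2-fold lower. The 45 others had 13 higher and 32 lower, with 3 and 22 at least 2-fold. Without the HECT and RING-between-RING types and the hits outside plants, 99 were higher and 110 lower. The ligase genes also changed by more, with a median absolute log2 ratio of 1.02 beside 0.80. How many ligase genes were tested and not called is not shown by the table.

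The share of lower genes was highest among the ligases with high read counts. Of the 42 ligases whose mean reached 1000 in the higher group, 7 were higher and 35 lower, 83.3% lower, beside 44.1% of the 3703 listed genes at that level. Of these 42, 25 were at least 2-fold lower and 1 was at least 2-fold higher. These are 59.5% and 2.4%, beside 20.1% and 12.4% of the listed genes at that level. With Arabidopsis hits alone, 29 of 35 at that level were lower. Among the 32 ligases between 20 and 100, in contrast, 19 were higher and 13 lower, beside 43.9% higher of the listed genes in that range. The level is a read count that was not divided by transcript length, so it does not order the genes by RNA molecules. The genes under 20 all passed 2-fold, in the ligases and in the listed genes alike, so no smaller change was listed at that depth.

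**Figure D1:**
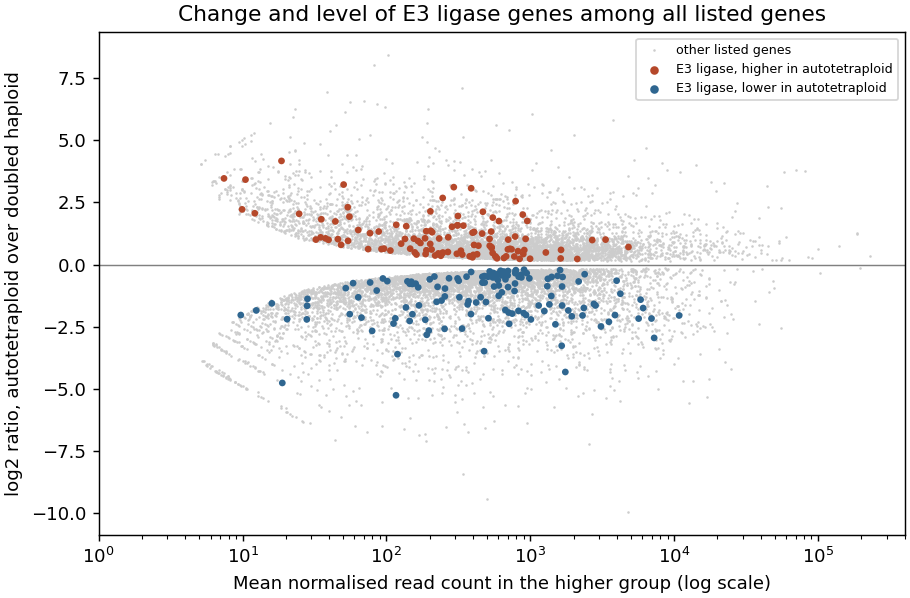
Mean normalised read count in the higher group (x axis, log scale) and log2 ratio of autotetraploid over doubled haploid means (y axis) for all listed genes (grey) and the E3 ligases (red higher, blue lower in autotetraploid leaves). At a mean of 1000 or more, 35 of the 42 ligases lie below 0, and the gap around 0 holds genes that the authors did not call.

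Counts by direction are given by family, with no test of a difference between families. Families were assigned by name, so the remaining RING ligases may hold further genes of the RING-between-RING type. U-box ligases had 28 genes higher and 42 lower with a median log2 ratio of -0.52, and the remaining RING ligases had 32 higher and 58 lower with a median of -0.49. The ATL family, plant RING-H2 proteins with a membrane-spanning segment, had 20 higher and 23 lower with a median of -0.41. All 7 BOI and BRG genes, all 7 RMA genes and all 3 SINA genes were higher, and 4 of the 5 XBAT genes were. The RGLG genes had 3 higher and 4 lower, the RING-between-RING genes 2 and 4, and the HECT genes 1 and 3. Both BRE1-like genes were lower, and the 2 ORTHRUS genes went opposite ways.

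**Figure D2:**
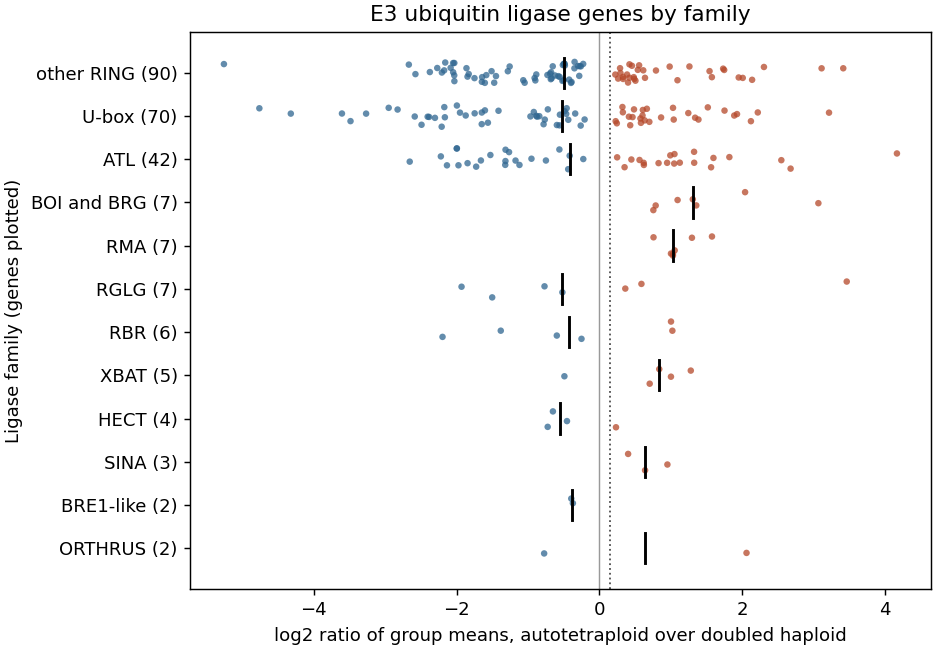
Log2 ratio of autotetraploid over doubled haploid means (x axis) for each E3 ligase gene (points), by family with the number of genes plotted (y axis); black bars are family medians and the dotted line is the median of all listed genes, 0.16. ATL38, at 0 in autotetraploid leaves, has no ratio and is not drawn, and all points of the BOI and BRG, RMA and SINA families lie to the right of 0.

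Within the U-box family the genes matching PUB20 to PUB31 were lower, apart from PUB24. These proteins carry a U-box followed by armadillo repeats, and in Arabidopsis PUB22, PUB23 and PUB24 dampen the immune responses set off by microbial molecules. Of the 16 genes, 15 were lower, 14 of them at least 2-fold, with a median log2 ratio of -2.28. The other 54 U-box genes had 27 higher and 27 lower, with a median of 0.01. This group was formed after the values were seen, so its count is a description.

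The PUB23 gene BraA04002832 had normalised counts of 112, 74.6 and 76.7 in the 3 autotetraploid libraries, against an authors' mean of 1754 in doubled haploid leaves, 20.01-fold more. Each autotetraploid library was thus far under the doubled haploid mean. The second PUB23 gene, BraA03001979, had means of 552 and 3102, 5.62-fold lower. The PUB22 gene BraA04001227 had 11.9, 11.1 and 6.48 in autotetraploid and 99.5, 138 and 121 in doubled haploid libraries, 12.2-fold lower by the means. The PUB22 gene BraA03004908 had 39.5, 46.4 and 42.1 against 444, 514 and 476, 11.2-fold lower. The libraries of the groups were far apart for both PUB22 genes. The remaining PUB22 gene, BraA09003235, had means of 703 and 2357, 3.35-fold lower. In Arabidopsis PUB22 and PUB23 also limit the response to drought.

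PUB24 moved the other way. Its gene BraA03003757 had counts of 48.4, 40.3 and 62.6 in autotetraploid and 4.48, 7.40 and 4.36 in doubled haploid libraries. All autotetraploid libraries were above all doubled haploid ones, and the means differed 9.32-fold. limma on the recovered counts gave a log2 difference of 3.01 with a standard error of 0.27 and an adjusted p of 8.2e-05, on the log2(count + 1) scale. limma was fitted only to genes that had passed the authors' test on the same libraries, so its p is no independent evidence. The 3 PUB21 genes were lower in every autotetraploid library. BraA05003419 had 28.6, 27.2 and 24.8 against 212, 189 and 172, and BraA04001356 had 46.4, 38.3 and 42.1 against 274, 231 and 256. BraA03003317 had 97.8, 99.8 and 93.9 against 388, 371 and 403. These are 7.09, 6.003 and 3.99-fold differences of the means.

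PUB20 BraA02001506 had means of 172 and 1654, and PUB27 BraA06003522 had 1546 and 6963. The pair of PUB25 genes were lower by 3.87 and 3.66-fold; in Arabidopsis PUB25 acts on the immune kinase BIK1 and in freezing tolerance. PUB29 BraA05002073 was 5.22-fold lower. PUB31 BraA09006937 had 27.7, 16.1 and 33.5 against 117, 124 and 106. Its libraries did not overlap between groups. PUB30 BraA01003594 showed the smallest change of the 16, with means of 133 and 200.2, a log2 ratio of -0.59.

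**Figure D3:**
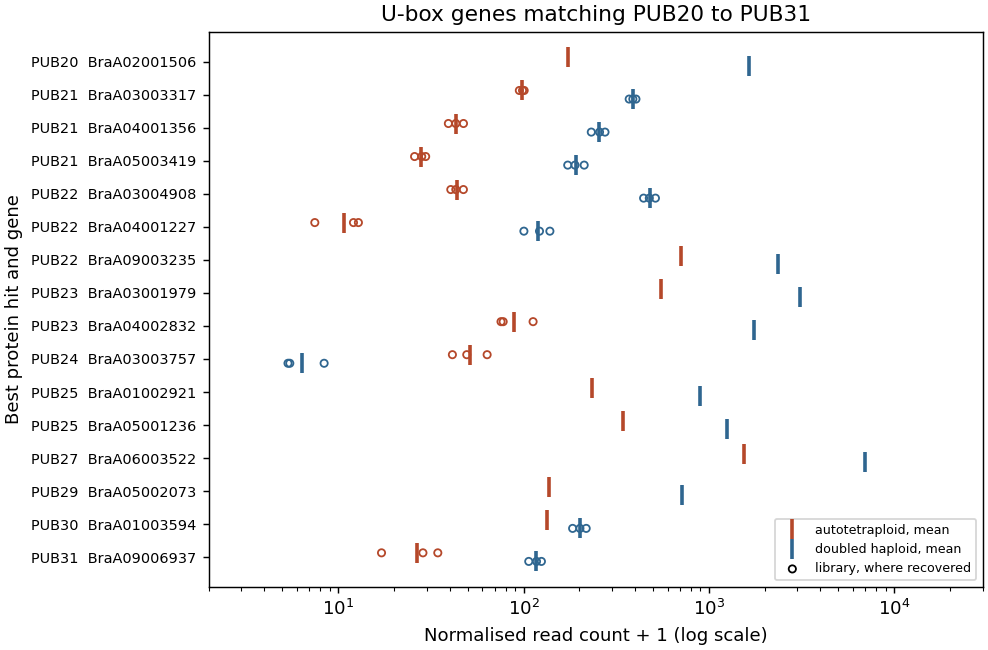
Normalised read count plus 1 (x axis, log scale) of the 16 U-box genes matching PUB20 to PUB31 (y axis); bars are the authors' group means (red autotetraploid, blue doubled haploid) and open circles the libraries where they could be recovered. In 15 genes the autotetraploid mean lies to the left, and PUB24 is the exception, with 50.5 against 5.41.

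Outside that group, PUB17 fell most in counts among the U-box genes. PUB17, needed for defence-linked cell death in plants, had means of 940.0 and 7268 for BraA09004153, 7.73-fold lower, and of 903 and 1664 for BraA08002780. Both PUB9 genes were lower, by 5.30 and 3.13-fold. All 3 PUB5 genes were lower. PUB5 BraA03006443 had 0, 1 and 1 reads in autotetraploid libraries and normalised counts of 20.6, 17.6 and 18.5 in doubled haploid ones, a ratio of 27.2 with a 95% counting interval of 7.35 to 234. PUB12 BraA04002097 and PUB13 BraA06000995, matches of Arabidopsis ligases of the flagellin receptor FLS2, rose by 1.38 and 1.40-fold. PUB33 BraA06004635 rose from 107 to 468, while of the other 3 PUB33 genes 1 was higher and 2 were lower. A pair of PUB36 genes with neighbouring identifiers both rose, with means of 954 against 282 and 549 against 148. The adjacent PUB54 and PUB56 genes on A10 went opposite ways, with PUB54 BraA10002739 at 52.4, 57.5 and 56.1 against 12.5, 15.7 and 15.3 and PUB56 BraA10002740 at 88.9, 91.8 and 84.2 against 148, 149 and 158. Neither of them had overlapping libraries.

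Genes matching the same protein did not always move alike. The PUB4 hit had 9 genes, 5 higher and 4 lower, with log2 ratios from -1.41 to 1.52. Its gene with the most reads, BraA01003262, had 2199 against 5849.7, and BraA05003345 had 286 against 99.5. The PUB11 hit had 2 higher and 3 lower, from -2.30 to 1.25. Over all ligases 51 hits were shared by several genes, 148 genes in all. The genes of 14 hits were all higher, those of 19 all lower, and 18 hits had genes of both directions. Near-identical copies could share reads, so values of single copies are uncertain to that degree.

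Among the RING ligases, the genes matching a cotton protein named RING1 were lower in most cases. That hit had 12 genes, 4 higher and 8 lower, 7 of the latter at least 2-fold. RING1 BraA03001186 had the highest mean of any ligase gene, 10841 in doubled haploid leaves, and was at 2623 in autotetraploid leaves. RING1 BraA02001177 was at 5667 and 1256 in the same order. RING1 BraA01000768 had the largest fall of all ligases above 0 in both groups, with 3.95, 3.02 and 2.16 in autotetraploid and 117, 120.2 and 113 in doubled haploid libraries, 38.3-fold lower. The doubled haploid libraries of this gene lay within a narrow range, and no autotetraploid library came near it. RING1 BraA08000920, BraA09000733, BraA05003765 and BraA08001867 were lower by between 3.00 and 4.24-fold, and BraA03001357 by 1.42-fold. The rises were smaller: RING1 BraA02000671 was at 25.7, 43.4 and 35.6 against 13.4, 14.8 and 20.7, BraA08000682 rose 1.42-fold, and BraA05002578 rose 1.26-fold. RING1 BraA08002993 was at 40.5, 61.5 and 43.2 against 23.3, 34.2 and 26.2, without overlap. Among genes already chosen by the authors' test, limma called it at an adjusted p of 0.0185. The limma adjusted p became 0.0568 without autotetraploid library b, 0.0607 without doubled haploid library a and 0.0502 without doubled haploid library c. Of the 6 genes matching another RING1-like protein, 5 were lower, with BraA06002655 at 56.3, 55.5 and 57.2 against 337, 358 and 313.

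ATL genes changed in both directions. ATL55, an Arabidopsis ligase also called RING1 that promotes cell death, had means of 1877 and 4233. ATL2, whose Arabidopsis gene responds quickly to chitin, was lower in both genes, by 2.40 and 2.17-fold. ATL6 and ATL31 act in Arabidopsis in the balance of carbon and nitrogen and in defence. ATL31 BraA09001805 had 45.4, 37.3 and 31.3 against 186, 155 and 114, and ATL6 BraA05003257 had 10.9, 19.2 and 11.9 against 59.1, 49.0 and 58.9. Neither overlapped between groups. The other ATL6 genes fell by 1.35 and 1.33-fold. ATL5 BraA09002577 had 191 in autotetraploid leaves by the authors' mean and 796, 707 and 746 in doubled haploid libraries.

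The largest rise of a ligase was in ATL37 BraA03002836, with 8.89, 21.2 and 25.9 in autotetraploid libraries. The doubled haploid libraries had 0, 1 and 2 reads, a ratio of 18.0 with a 95% counting interval of 6.21 to 95.7. ATL77 BraA03004114 had an autotetraploid mean of 791 and doubled haploid libraries at 126, 145 and 133. ATL21A BraA10002285 had 246 and 37.6, 36.1 and 41.4 in the same order. In both genes every doubled haploid library was far under the autotetraploid mean. ATL38 BraA05000161 had no reads in the autotetraploid libraries and 3.58, 4.62 and 5.45 in the doubled haploid ones, at least 4.44-fold lower against a floor of 3 reads over the group. All 4 ATL45 genes were lower. In ATL45 BraA03006365 the autotetraploid libraries were widely spread, at 1.98, 40.3 and 77.7, and still under the doubled haploid 219, 149.8 and 191. ATL42 BraA01000927 was the 1 ligase of 67 with libraries recovered in both groups whose libraries overlapped, with 26.7, 41.3 and 45.4 against 17.0, 27.7 and 9.81.

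The BOI and BRG genes all rose. BOI is an Arabidopsis RING ligase that restrains cell death after infection and wounding, and BRG1, BRG2 and BRG3 are its relatives. BOI BraA03005221 had an autotetraploid mean of 388 and doubled haploid libraries at 46.6, 46.2 and 45.8, 8.41-fold higher. BOI BraA01001185 had 23.7, 18.1 and 32.4 against 7.17, 6.47 and 4.36. The 3 BRG3 genes rose by 1.73, 2.14 and 2.48-fold, BRG2 by 2.57-fold and BRG1 by 1.69-fold. In each of these genes the doubled haploid libraries lay below the autotetraploid mean.

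The RMA genes, whose Arabidopsis products sit in the membrane of the endoplasmic reticulum, rose in all 7 copies, with log2 ratios from 0.76 to 1.58. RMA2 BraA01003144 had an autotetraploid mean of 314 and doubled haploid libraries at 103, 96.2 and 116. RMA2 BraA08001919 had 521 and 245, 257 and 263. The ligases with ankyrin repeats and a RING had 3 XBAT31 genes, all higher, the strongest in counts being BraA07001920 at 4817 against 2950.2. XBAT31 BraA03002616 was at 3340.0 and 1664. The 4 RHA1B genes, small RING-H2 proteins, also rose, with BraA03002919 at 294 against doubled haploid libraries of 30.5, 34.2 and 37.1 and BraA04000588 at 887 against 208, 226 and 227. XBAT35 BraA01002577 was lower, at 363 against 509. The gene BraA03000725, whose best hit was the animal ligase MIB1, rose from 179.8 to 605.

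**Figure D4:**
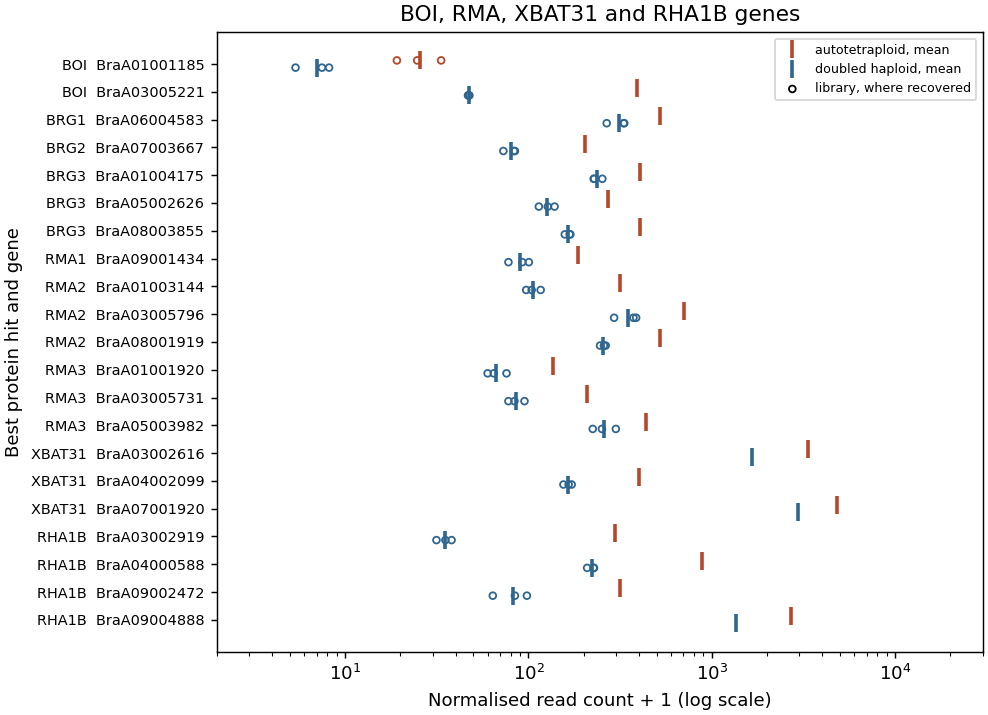
Normalised read count plus 1 (x axis, log scale) of the BOI and BRG, RMA, XBAT31 and RHA1B genes (y axis); bars are the authors' group means (red autotetraploid, blue doubled haploid) and open circles the libraries where they could be recovered. Every autotetraploid mean lies to the right of its doubled haploid mean, and the recovered doubled haploid libraries lie close to their mean.

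Ligases known for abscisic acid and drought responses were lower in 14 of 21 genes, 9 of them at least 2-fold. They were higher in 7, 4 of them at least 2-fold. That is 66.7% lower and 42.9% at least 2-fold lower, beside 50.0% and 23.0% of all listed genes. The median log2 ratio of the 21 was -0.77. Besides PUB22 and PUB23, the 3 genes matching RHA2B were lower; RHA2A and RHA2B promote abscisic acid responses in Arabidopsis. RHA2B BraA02003293 had 89.9, 87.7 and 88.5 in autotetraploid and 250.0, 229 and 246 in doubled haploid libraries. RHA2B BraA06004652 had means of 512 and 1839.6. RHA2A BraA09000811 rose instead, from doubled haploid libraries at 41.2, 47.2 and 49.0 to a mean of 202. AIP2, which in Arabidopsis targets the abscisic acid regulator ABI3, rose in BraA06004074 from 6.27, 11.1 and 15.3 to 49.4, 61.5 and 50.7. Every autotetraploid library of AIP2 was above the doubled haploid ones.

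KEG, which keeps the transcription factor ABI5 low in Arabidopsis seedlings, was at 744 and 945, a log2 ratio of -0.35. SIS3, an Arabidopsis ligase of the sugar response, had 10.9, 14.1 and 6.48 in autotetraploid libraries and 0, 2 and 1 reads in doubled haploid ones, a ratio of 10.7 with a 95% counting interval of 3.43 to 56.2. RGLG1 and RGLG2 act on drought and abscisic acid signalling in Arabidopsis. RGLG1 was lower in 3 of 4 genes: BraA05003519 had means of 186 and 708, BraA03003233 had libraries at 77.1, 75.6 and 84.2 against 228, 214 and 229, and BraA07003649 had 89.9, 97.8 and 93.9 against 183, 141 and 156. The remaining gene, BraA06003595, rose 1.51-fold. RGLG2 BraA06000229 had 7.90, 10.1 and 4.32 in autotetraploid libraries and 0, 1 and 1 reads in doubled haploid ones, a ratio of 11.1 with a 95% counting interval of 2.87 to 103. RGLG2 BraA02000585 fell 1.43-fold and BraA10000446 rose 1.29-fold. PUB18 BraA06002489 rose 1.52-fold and PUB19 BraA01002334 fell 1.83-fold; both limit drought responses in Arabidopsis. Outside the lists, and named after its values were seen, XERICO, a RING-H2 gene that raises abscisic acid in Arabidopsis, rose in both genes, BraA07000689 from 24.2, 30.5 and 41.4 to 61.2, 74.6 and 95.02.

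The immunity list held 37 ligases, of which 23 were lower, 19 at least 2-fold, and 14 were higher, 7 at least 2-fold. Their median log2 ratio was -1.12. The shares were 62.2% lower and 51.4% at least 2-fold lower, beside 50.0% and 23.0% of all listed genes. The list shares its PUB22 and PUB23 genes with the abscisic acid and drought list. It includes the 12 genes of the cotton hit RING1, taken in by that name, for which no immune role is given here. Without them 15 were lower, 12 at least 2-fold, and 10 were higher, 6 at least 2-fold, with a median of -0.88. The lower genes were those of PUB17, PUB22, PUB23, ATL2, ATL6, ATL31, ATL55 and most RING1 genes, with BAH1. The higher genes were the 7 BOI and BRG genes, PUB12, PUB13, PUB24 and 4 RING1 genes.

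In the senescence and nutrient list 9 of 11 genes were lower, 3 at least 2-fold, and 2 were higher, 1 at least 2-fold. That is 81.8% lower and 27.3% at least 2-fold lower, beside 50.0% and 23.0% of all listed genes. Its BAH1, ATL31 and ATL6 genes are also in the immunity list. BAH1, also called NLA, limits phosphate uptake in Arabidopsis by acting on phosphate transporters, and its gene BraA09000089 had 173 against 493. PUB44, which delays senescence in Arabidopsis, was at 786 and 906, a log2 ratio of -0.20 with an adjusted p of 0.049994 in the authors' deposited table, the smallest change of this list. PUB43 BraA07003885 was 1.38-fold lower. UPL5, a HECT ligase that degrades the senescence factor WRKY53 in Arabidopsis, rose 1.177-fold. LUL4 BraA05003167 rose from 17.0, 12.9 and 9.81 to 44.5, 36.3 and 51.8, while LUL1 and LUL3 fell by 1.32 and 1.27-fold. The sums of the senescence markers given above differed between the groups, and their part in these values was not tested.

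Light, flowering, growth and chromatin ligases changed by less than 2-fold, except for 1 ORTH2 gene. HOS1, which restrains flowering and cold responses in Arabidopsis, was at 539.5 and 655. CIP8, a partner of COP1, rose 1.56-fold. BRE1A BraA05003927 and BRE1B BraA08000940, matches of the ligases that mark histone H2B, fell by 1.31 and 1.29-fold. ORTH2 has a role in DNA methylation in Arabidopsis: its gene BraA09001233 had 109, 78.6 and 68.0 against 156, 141 and 139.5, and BraA07003208 had 16.8, 11.1 and 8.64 against 2.69, 2.77 and 3.27. The ORTH2 libraries did not overlap in either gene, and the directions were opposite. All 3 PRT6 genes, which recognise destabilising protein ends, fell by 1.31 to 1.49-fold, and RKP BraA09001194 by 1.41-fold.

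SINAT3 BraA04000605 rose 1.32-fold. SINL2 BraA07003544 rose from 30.5, 24.96 and 28.3 to 55.3, 57.5 and 49.7, and SINL7 BraA04001347 from 69.9, 57.3 and 57.8 to 116, 84.7 and 88.5. The libraries did not overlap in either gene. Among genes already chosen by the authors' test, limma called SINL7 at an adjusted p of 0.0225. The limma adjusted p became 0.0689 without autotetraploid library a, 0.0599 without doubled haploid library b and 0.0575 without doubled haploid library c. Among the HECT ligases UPL2 BraA09002560 fell 1.37-fold and UPL6 BraA01003951 1.65-fold. Of the RING-between-RING genes, ARI1 BraA01000415 fell 1.51-fold, and ARI11 BraA03001782 had 4.94, 3.02 and 5.40 against 15.2, 23.1 and 22.9.

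Ligases outside the role lists added further large falls. ATL80 was lower in both genes, with BraA06001086 at 35.6, 30.2 and 28.1 in autotetraploid and 201, 178 and 213 in doubled haploid libraries. SGR9, which acts in the gravity response of Arabidopsis shoots, had 14.8, 14.1 and 8.64 against 70.8, 84.1 and 83.9 in BraA02000069. HIP1 BraA08003310 had 27.7, 30.2 and 32.4 against 154, 145 and 136. None of these genes had overlapping libraries, as was the case for 99.2% of all listed genes recovered in both groups. Among the genes whose best hit was an animal protein, BraA05002809, matching RNF126-B, had means of 949.7 and 3884, and BraA06001724, matching RNF181, had 559 and 2309.6. HRD1B, an Arabidopsis ligase that clears misfolded proteins from the endoplasmic reticulum, was 1.47-fold lower in BraA02001565. These genes were named after their values were seen.

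Library values were available in both groups for 67 ligases, and for 66 of them the groups did not overlap, 43 lower and 23 higher. Of all 3849 listed genes recovered in both groups 99.2% had no overlap, so this share is that of the table at large. Recovery reaches higher means in doubled haploid than in autotetraploid leaves and so takes in more genes that fell. limma, fitted to the 2590 genes with both means under 100, called all 42 ligases among them, 24 higher and 18 lower, at an adjusted p under 0.05. It called 42.7% of the 2590 genes as higher and 57.2% as lower. All of these genes had already passed the authors' test on the same libraries, so these calls are no independent evidence.

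By chromosome, taken from the deposited identifiers, 8 of the 24 ligases of A01 were higher. Over all listed genes of A01 27.9% were higher. The remaining ligases had 100 higher and 122 lower, 45.0% higher, beside 50.1 to 56.8% of all listed genes on each other chromosome. On A07 13 of 21 ligases were higher, beside 50.7% of all its listed genes, and on A02 4 of 17, beside 50.2%. Without A01 the ligases at least 2-fold changed were 47 higher and 68 lower, the U-box genes 26 and 36, the ATL genes 19 and 22, and the remaining RING genes 31 and 52.

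Other listed genes of the ubiquitin and SUMO pathways showed no shared direction when pooled, and the lists pooled here went different ways. Of the 127 genes, 61 were higher and 66 lower, with a median log2 ratio of -0.24. Among them 10 were at least 2-fold higher and 18 at least 2-fold lower. These are 7.9% and 14.2% of them, beside 16.6% and 23.0% of all listed genes. Without A01 there were 59 higher and 54 lower, 52.2% higher, beside 50.1 to 56.8% of all listed genes on each other chromosome. Ubiquitin genes were higher in 8 of 9 cases, led by polyubiquitin BraA03002999 at 13199.6 against 7966, a gain below 2-fold. The E1 gene rose, and of 24 E2 genes 13 rose and 11 fell. Deubiquitinases, which remove ubiquitin, were lower in 22 of 33 genes, and anaphase-promoting complex subunits in 6 of 8. Cullin, RBX1 and SKP1-like genes of the multi-subunit ligases had 4 higher and 8 lower, and SUMO genes 4 and 7. The 26 BTB/POZ genes had 16 higher and 10 lower, and the 3 COP9 signalosome genes 2 and 1. The 127 genes thus also hold ligase parts, their regulators and SUMO enzymes.

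Genes were also picked by name for proteins that Arabidopsis E3 ligases are known to act on, or to work with. The names take in relatives of such proteins, so not every gene is that of a known substrate. Of the 58 genes, 40 were lower, 24 at least 2-fold, and 18 were higher, 6 at least 2-fold. That is 69.0% lower and 41.4% at least 2-fold lower, beside 50.0% and 23.0% of all listed genes. Without A01 35 were lower and 16 higher, 31.4% higher, beside 50.1 to 56.8% of all listed genes on each other chromosome. These are messenger RNA values and say nothing of protein amounts. All 3 genes of DREB2A, a drought regulator, were lower, the largest at 1601 against 5594. EXO70 genes, for an exocyst subunit, were lower in 12 of 13, with an EXO70B1 gene, BraA02001110, at 873 against 4118. PUB22 targets the member EXO70B2 in Arabidopsis, whereas all 13 genes matched EXO70A1 or EXO70B1. The 3 genes matching ABI5 were lower, with BraA05001987 at 7.23 against 560, and 3 of the 5 matching ABI5-like proteins were higher. All 4 phosphate transporters of the PHT1 kind, the targets of BAH1, were higher, with PHT1-4 BraA05003715 at 6354 against 1241. Both genes of WRKY53, the target of the HECT ligase UPL5, were lower, at 416 against 1995 and 1819 against 6366. All 6 genes of the ATAF kind were lower, as was ACS6, an ethylene synthesis gene, at 3221 against 18392. The 14-3-3 genes, partners of ATL31 and ATL6, were higher in 7 of 9 cases, 1 of them at least 2-fold.

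**Figure D5:**
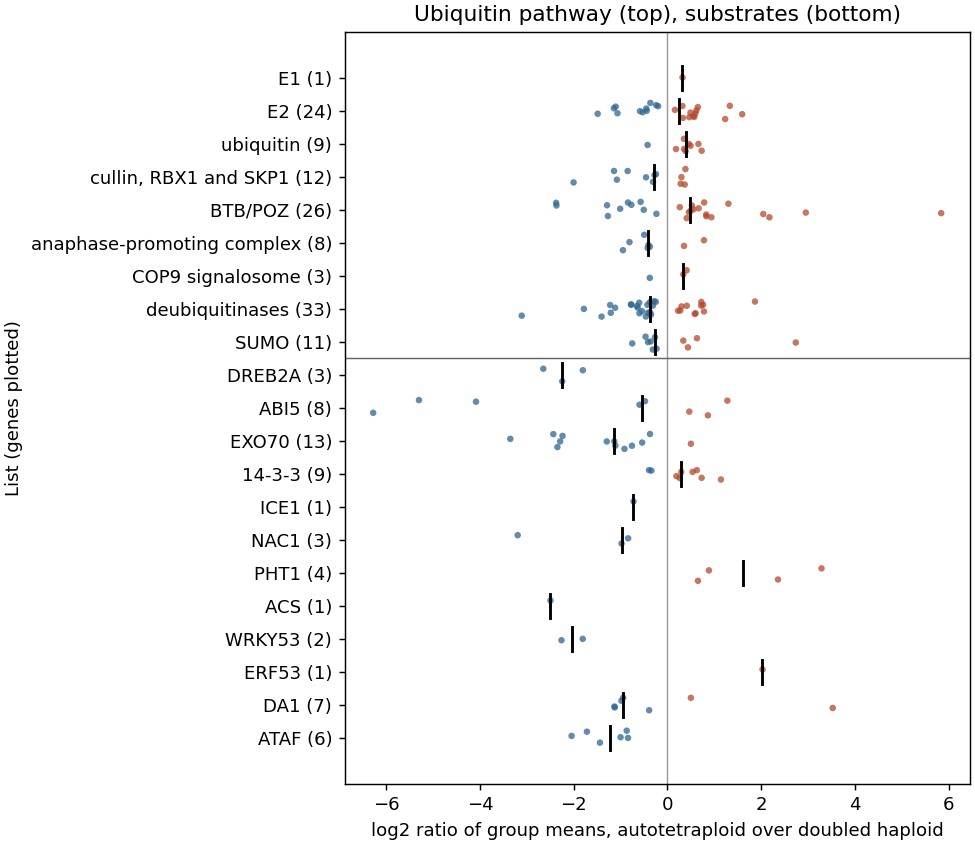
Log2 ratio of autotetraploid over doubled haploid means (x axis) for listed genes, by list with the number of genes (y axis). Black bars are medians. Above the line are genes of the ubiquitin and SUMO pathways, with ligase parts such as BTB/POZ proteins. Below it are genes matched by name to substrates or partners of plant E3 ligases, relatives included. Ubiquitin genes lie mostly right of 0 and EXO70, DREB2A and WRKY53 genes mostly or wholly left of it, while all PHT1 genes lie to the right.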

How the data were processed

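Messenger RNA was sequenced in 6 leaf libraries, 3 per group. TRIzol extraction and an Illumina kit, with strand not mentioned, are given per the labels' protocols. HTSeq 0.6.1, TopHat2 2.0.12, DESeq 1.18.0 and Bowtie2 2.2.3 are named in the submitters' processing notes. Neither genome build nor annotation is given in the sources used here. What the authors deposited is 1 table of called genes. Its signal columns are, per the file headers, read counts, and the values show 1 normalised mean count per group. The deposited log2 values match the ratio of these means, autotetraploid over doubled haploid, to within 5e-05. Each deposited p-value, raw or adjusted, comes from the authors' own test, and only genes with an adjusted p under 0.05 are listed. The 34980 genes tested follow from how adjusted and raw p-values relate at each rank. Total counts per library are not in the table, so depth is known only as size factors.

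Members were chosen by the protein description, and the ligases, families, role lists, markers, pathway lists and substrate lists were chosen with earlier results of these data known. Directions and folds were counted from the deposited means, with no test of a list. Each mean is a sum of whole reads over size factors, so reads per library were solved from it. The size factors were 1.01, 0.992 and 0.926 in autotetraploid and 1.12, 1.08 and 0.917 in doubled haploid libraries. Under a mean of 100, 3385 of 3385 autotetraploid and 3280 of 3280 doubled haploid values had exactly 1 solution within the rounding of the table, whereas solutions were found for 0.0% and 0.2% of 500 values once the steps were shifted by up to 1%. In doubled haploid leaves 100.0% of values from 100 to 300 and 72.2% from 300 to 1000 had a single solution, and in autotetraploid leaves 14.6% and 0.0%. The recovered libraries have no replicate label.

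Using R 4.3.3, limma 3.58.1 was fitted to log2(recovered normalised count + 1) over the 2590 genes with both means under 100, with Benjamini-Hochberg adjustment over all of them. Tested on simulated data for this comparison with 2590 genes, it recovered 97% of 200 genes changed 4-fold, with 7 false calls. In that simulation only the 200 genes changed and all genes shared 1 dispersion, whereas all 2590 real genes had passed the authors' test. Its false calls therefore do not measure the error in these data. Intervals cover counting error only. The 92 named ligases are the 8 largest rises and 8 largest falls among genes reaching a mean of 5 in either group, the 5 smallest adjusted p in each direction, the 2 smallest of each family, the 3 highest means and every gene of 6 role lists; any other gene was named after its values were seen. The reference gene table matched none of the deposited identifiers, and neither sequences nor coordinates were used. The alternatives were a stricter adjusted p, a minimum mean, 1 gene per protein hit, leaving out A01 genes, Arabidopsis hits alone, leaving out HECT, RING-between-RING and non-plant hits, leaving out genes listed at 0, leaving out the cotton RING1 hit, other pseudocounts, limma with a trend, leaving out each library and a wider recovery.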

Additional observations from a re-analysis of the deposited data

How the results depend on the processing

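At an adjusted p under 0.001, 37.5% of the ligases were higher, 66 against 110, and of the other RING ligases 23.8%, 15 against 48, beside 43.9% and 35.6% with all listed members of each. The other 47 values of whole lists stayed within the counting interval of the share reported or, for calls, within 1.5 times the count. At 2-fold, Arabidopsis hits alone gave 49 higher and 52 lower ligases beside 52 and 74, and leaving out the gene listed at 0 gave 52 and 73. The majority changed side in lists near balance: the pathway genes became 49 higher and 44 lower with 1 gene per protein hit, 59 and 54 without A01, and 58 and 55 with Arabidopsis hits alone, and the ATL genes 16 and 15 with 1 gene per hit. With recovery extended to means under 1000, limma called 67 ligases, 24 higher and 43 lower. More genes were tested there, and of all 3849 it called 1268 as higher and 2577 as lower. This alternative was chosen after seeing the data, as were those for the cotton RING1 hit and for Arabidopsis hits at high counts. Leaving out each library in turn gave between 38 and 39 of 42 ligases called, beside between 2444 and 2494 of all 2590 genes. Of 165 values of 15 named ligases under these alternatives, 159 kept their call and 6 lost it, all 6 on leaving out a library, in SINL7 BraA04001347 and RING1 BraA08002993. No paired analysis was possible because the recovered libraries carry no replicate number. Genes that did not change are not in the table, near-identical copies may share reads, strand was not stated, and normalisation is relative, so RNA per cell is not known.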

Other observations

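COP1, the light signalling ligase that the rule left out, was higher in autotetraploid leaves, with authors' means of 905 and 628 for BraA05000333. Of 2 genes matching its partner SPA3, BraA05002383 was higher, at 386 against 245, and BraA01003803 was lower, at 137 against 183.

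BTB/POZ proteins link cullin ligases to their targets, and 16 of their 26 listed genes were higher. The gene matching BT2, BraA06000828, had a mean of 3773 against 66.0 in doubled haploid leaves, and the gene matching BT1, BraA02004368, had 473 and 61.2. Of the genes matching BT5, BraA03006514 was lower, at 181 against 935, and BraA01000143 was higher, at 17.4 against 4.23.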
